A study of Mus musculus with 24 samples.

Results

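PLX3397 and Anakinra were compared directly, mouse against mouse, in injured brain tissue taken 5 days after traumatic brain injury (TBI). The comparison used the 5 libraries labelled PLX3397 and the 5 labelled Anakinra, chosen by these labels alone, 10 of the 24 libraries of the series, with 1 library per mouse. All 10 mice were male, were labelled C57BL6N (the study's methods name C57BL/6JRj), were 12 to 16 weeks old and had undergone controlled cortical impact (CCI), in which a piston deforms the exposed cortex. PLX3397 mice ate chow with 290 mg/kg of the drug ad libitum from 90 min after CCI until tissue collection, so the dose each mouse took depended on what it ate. Anakinra mice received 100 mg/kg subcutaneously at 5 min, 24 h, 48 h and 72 h. By the study's methods, mice ate either PLX3397 or vehicle chow and were injected with either Anakinra or saline, and the labels do not list placebos for single mice. The route, the schedule and the time since the last dose of active drug differed between the groups along with the drug. The other 14 libraries came from 5 mice given vehicle after TBI, 5 given both drugs after TBI and 4 sham mice without craniotomy, and they entered no test of PLX3397 against Anakinra. Their levels are given beside the result for orientation.

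PLX3397 (pexidartinib) is a small molecule that inhibits the receptor tyrosine kinase CSF1R and also KIT and FLT3. Microglia, the resident macrophages of the brain, need CSF1R signaling to survive, and inhibitors of the receptor remove many of them. Anakinra is a recombinant form of the natural interleukin-1 receptor antagonist, which occupies the receptor IL1R1 and so blocks signaling by IL-1α and IL-1β without activating it. IL-1 is made largely by microglia and infiltrating myeloid cells after brain injury, and IL1R1 is known mainly on endothelial cells, some neurons and other non-myeloid cells. One drug thus acts on the survival of the cells, the other on one of their signals.

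The deposited values were named TPM, which is each gene's share of the messenger RNA per unit of transcript length, scaled to the same total in every library. Sequencing depth is therefore unknown, and no counting interval could be given. The study's methods add that its software calls the unit CPM, so whether values were divided by transcript length could not be checked. Between 22554 and 23216 genes had a value above 0 in each of the 10 libraries. The tissue is labelled cortex, but by the study's methods RNA came from cryosections of the lesion and its surroundings that also held striatum, dorsal hippocampus and thalamus, and the striatal marker Ppp1r1b reached 513 to 755 TPM in PLX3397 mice and 596 to 725 TPM in Anakinra mice. 1 PLX3397 mouse, J02, stood apart from its group. It had the lowest Ppp1r1b (513 TPM, with the next mouse at 727 TPM or above) and the highest values of several microglial genes, among them Tmem119 (32.6 TPM against 22 to 24.4 TPM in the other 4). Counts with and without this mouse are given below, and its part in the results was not tested in any other way.

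Most genes called different between the drugs were lower with PLX3397. After genes averaging under 0.5 TPM across the series were set aside, 17267 remained. Of these 1047 differed (6.06%), of which 874 were lower in PLX3397 than in Anakinra mice (5.06%) and 173 were higher (1.00%) at a Benjamini-Hochberg adjusted p below 0.05 in limma on log2(TPM + 1). Such genes are called lower or higher here, always in PLX3397 relative to Anakinra. Among the called genes, 113 lower and 4 higher ones differed by more than 1 on the log2 scale, and the median log2 fold change was -0.56 in the lower genes and 0.30 in the higher genes, against 0.022 over all tested genes. The study's limits for differential expression were unadjusted p below 0.05, a ratio of mean TPM above 2 and a difference above 4 TPM. Applied with limma's p, they gave 125 lower genes (0.724%) and 4 higher genes (0.0232%). Values of the 5 and 5 mice did not overlap at all in 929 genes that were lower with PLX3397 (5.38%) and in 327 that were higher (1.89%). Without mouse J02, 950 genes were called lower and 195 higher. The count called higher was the less stable one: it was 102 without Anakinra J05, 112 without Anakinra J06 and 113 without PLX3397 J20, and the 4 genes higher under the study's limits became 7 without Anakinra J06, J14 or J22. A test of each gene by itself with unequal variances on the TPM values called 500 genes lower and 76 higher after adjustment over all genes, and calls of single genes lost in this unequal-variance test are named below. Beside those, it lost the calls of Gsdmd, Cd79b, Irgm2, Col5a3, Slc11a1, Ftl1, Tgm1, S100b, Ugt8a, Bmp4, Bcas1, Nefl, Lipa, Abca1, Pf4 and Mog.

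**Figure D1:**
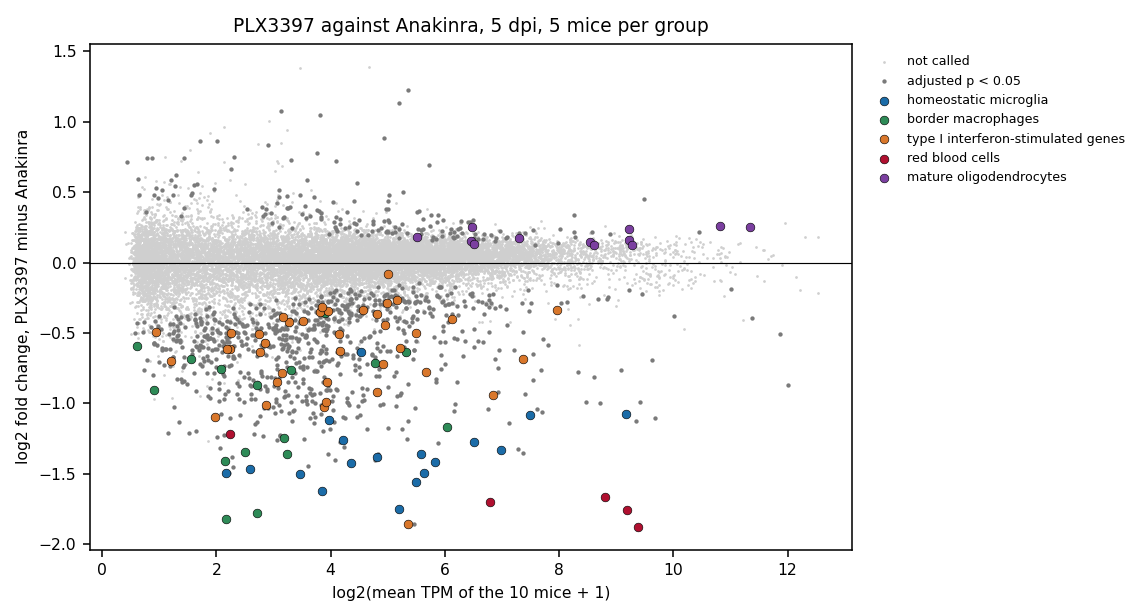
Each point is 1 of the 17267 tested genes; the horizontal axis gives the log2 of the mean TPM of the 10 mice plus 1, and the vertical axis the log2 fold change, PLX3397 minus Anakinra. Dark points are the 874 genes called lower and 173 called higher, and colored points are members of 5 gene lists: homeostatic microglia (median -1.40), border macrophages (-0.89), type I interferon-stimulated genes (-0.57), red blood cells (-1.70) and mature oligodendrocytes (0.17).

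The primary target of PLX3397 was itself among the strongly separated genes. Csf1r (chr18:61105572-61131139), the receptor for CSF1 and IL-34, measured 75.3, 120.5, 73.8, 90.5 and 85.2 TPM in the 5 PLX3397 mice (in the order J01, J02, J12, J19 and J20, kept below) and 234, 215, 219, 213 and 224 TPM in the 5 Anakinra mice (J05, J06, J14, J21 and J22). The highest PLX3397 mouse, J02, lay far below the lowest Anakinra mouse. The log2 fold change was -1.32 ± 0.10 (SE), with a limma adjusted p of 6.78e-06. Vehicle mice ranged from 194 to 247 TPM and mice on both drugs from 71 to 83.8 TPM. In bulk tissue, fewer cells of a type and less RNA per cell cannot be told apart, here and for every cell type gene below. The other 6 genes of this group were not called. Kit measured 19.7 to 24.7 TPM with PLX3397 and 15.9 to 22 TPM with Anakinra, and Flt3, the third receptor the drug acts on, 4.02 to 5.29 and 3.6 to 5.27 TPM. Of the ligands, Csf1 lay at 41.8 to 54.2 and 44.3 to 59.2 TPM and Il34 at 48.8 to 59 and 49.8 to 54 TPM, with differences of -0.09 ± 0.08 and 0.05 ± 0.05 on the log2 scale. Kitl differed by 0.06 ± 0.07 and Flt3l by -0.35 ± 0.11 (adjusted p = 0.0774).

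Genes of homeostatic microglia, those typical of resting microglia, were lower with PLX3397 throughout. All 18 tested members were called lower and all 18 had values that did not overlap between the groups, with a median log2 fold change of -1.40. P2ry12 (chr3:59216271-59262985), the ADP receptor that directs microglial processes to injury, measured 18, 21.2, 12.2, 17.5 and 11.5 TPM with PLX3397 and 54.3, 58, 56.2, 53.9 and 52.3 TPM with Anakinra, a difference of -1.75 ± 0.13 (adjusted p = 6.24e-06). Anakinra mice spread over only a few TPM, within the vehicle range of 43.3 to 61.1 TPM, while sham mice (25.9 to 29.5 TPM) lay between the drug groups. Tmem119 (chr5:113793729-113800396), a surface protein used to tell microglia from infiltrating macrophages, measured 24.1, 32.6, 22.9, 22 and 24.4 TPM and 78.8, 69.5, 68.2, 71.5 and 72.4 TPM (-1.49 ± 0.09, adjusted p = 1.8e-06). Here J02 again had the highest value of its group and still lay below every Anakinra mouse. Siglech, a sialic acid-binding receptor, differed by -1.62 ± 0.13 and Selplg, the ligand of P-selectin on leukocytes, by -1.56 ± 0.09. Cd33, another sialic acid receptor, differed by -1.5 ± 0.12, the fructose transporter Slc2a5 by -1.5 ± 0.11 and Crybb1, a crystallin that microglia also transcribe, by -1.47 ± 0.15. Cx3cr1, the fractalkine receptor, lay at 45.3 to 67.3 TPM against 121 to 136 TPM. Relative to the same 5 vehicle mice, the median member was lower by 1.38 on the log2 scale with PLX3397 and differed by -0.0019 with Anakinra. Without J02, 18 of 18 members remained called lower.

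**Figure D2:**
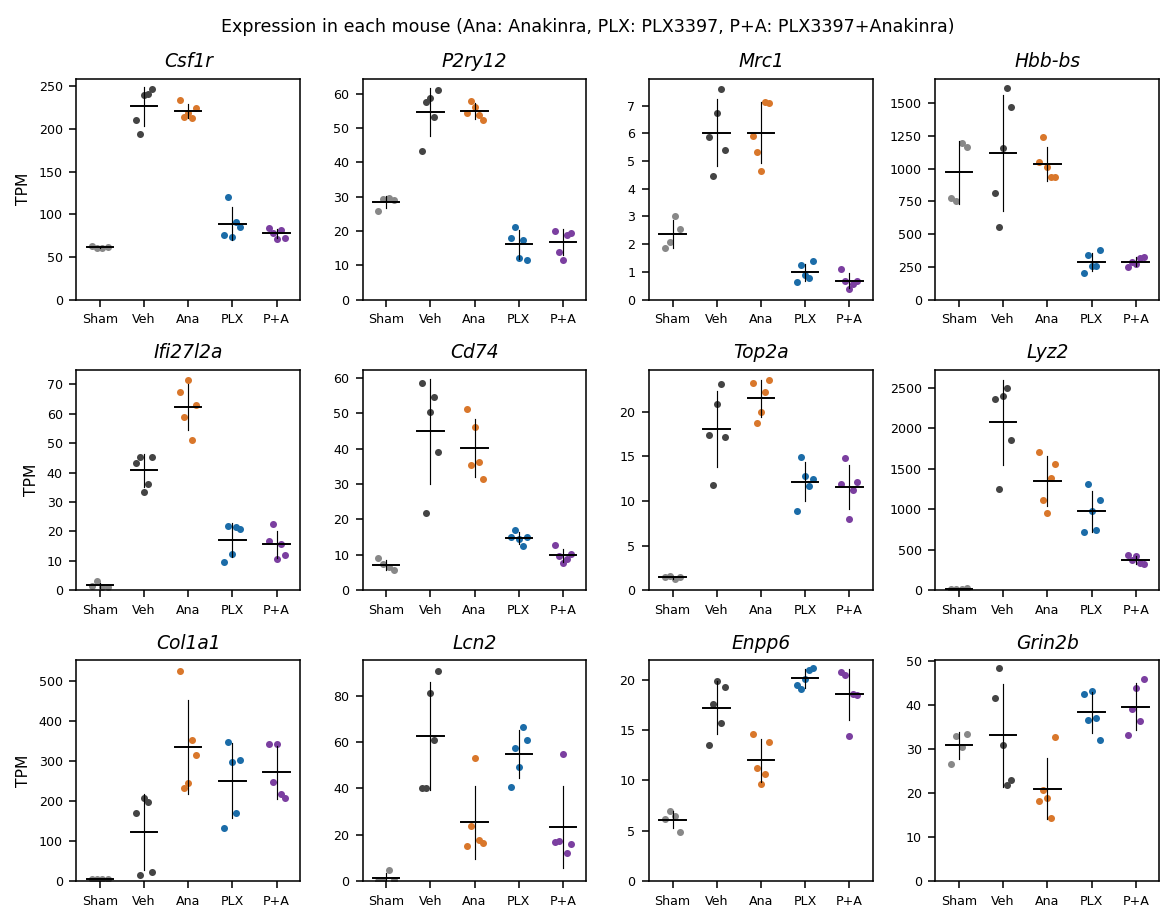
Expression of 12 genes in TPM (vertical axes, starting at 0) in every mouse of the 5 groups, with a horizontal line for the group mean and a vertical line for 1 SD on either side; n = 4 for sham and 5 for the others. In Csf1r, P2ry12, Mrc1, Hbb-bs, Ifi27l2a, Cd74 and Top2a the PLX3397 mice lie below every Anakinra mouse, in Enpp6 they lie above, and in Lyz2, Col1a1, Lcn2 and Grin2b the groups overlap.

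Macrophages at the borders of the brain, which sit around vessels and in the meninges and also depend on CSF1R, showed the same direction. Of 16 tested marker genes 15 were called lower, with a median log2 fold change of -0.89, and Cd209f did not reach the expression limit. Mrc1 (chr2:14229414-14332023), the mannose receptor CD206, measured 0.649, 1.24, 0.898, 0.766 and 1.38 TPM with PLX3397 and 5.9, 5.34, 4.64, 7.13 and 7.1 TPM with Anakinra, a difference of -1.82 ± 0.13 (adjusted p = 4.79e-06). The PLX3397 mice also lay below the sham range of 1.87 to 3.01 TPM, and the ratio of the group means was 6.1-fold. Cbr2, a carbonyl reductase of these macrophages, measured 1.55, 3.12, 1.23, 2.29 and 1.82 TPM and 10.7, 7.61, 8.12, 9.4 and 9.84 TPM (-1.78 ± 0.15). Cd163, the scavenger receptor for haptoglobin-hemoglobin complexes, measured 0.264, 0.293, 0.334, 0.164 and 0.469 TPM and 1.27, 1.11, 1.41, 2.03 and 1.5 TPM, so it was near the lower end of the measured range with PLX3397 (-0.91 ± 0.12). Ms4a6b and Siglec1 (sialoadhesin) differed by -1.36 ± 0.15 and -1.34 ± 0.14. Lyve1, the hyaluronan receptor that marks a subset of these cells, differed by -0.59 ± 0.11 (adjusted p = 0.00576, a call lost in the unequal-variance test). Pf4 differed by -0.64 ± 0.17 (adjusted p = 0.0406), a call lost when any 1 of 7 mice was left out (PLX3397 J01, J12 or J19, Anakinra J05, J14, J21 or J22; adjusted p 0.0645 to 0.112). F13a1 was not called (-0.36 ± 0.16, adjusted p = 0.223).

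Markers of damage-associated phagocytes, the activated, lipid-handling state of microglia and macrophages, split by gene. Of 25 tested members 16 were called lower and 0 higher, with a median of -0.50. Tyrobp, the adaptor through which TREM2 signals, measured 224, 389.8, 252, 254 and 297 TPM with PLX3397 and 629, 526, 503, 602 and 538 TPM with Anakinra (-1.0 ± 0.12, adjusted p = 0.000149). Trem2 itself, chosen after its values were seen, measured 112 to 185 TPM against 218 to 255 TPM (-0.84 ± 0.11). Ch25h, which makes 25-hydroxycholesterol, differed by -1.28 ± 0.12 and its call was lost in the unequal-variance test. The glucan receptor Clec7a differed by -0.98 ± 0.13 and cathepsin D (Ctsd) by -0.87 ± 0.11, the latter at 2361 to 3800.1 TPM against 4695 to 5734 TPM. Other abundant genes of the state were not called, and the following were picked out after their values were seen. Spp1 (osteopontin) measured 1546, 2911, 2082, 1594 and 2144 TPM with PLX3397 and 3398, 2276, 2234, 2504 and 3059.6 TPM with Anakinra (-0.41 ± 0.16, adjusted p = 0.183). Lyz2 (lysozyme) measured 722, 1316, 976, 746 and 1112 TPM and 1707, 1109, 959.7, 1391 and 1561 TPM (-0.47 ± 0.18, adjusted p = 0.163). Both groups overlapped in these genes, and the medians of both lay below the vehicle medians of 4169 TPM for Spp1 and 2360.3 TPM for Lyz2. Gpnmb, a lysosome-associated glycoprotein, lay at 136 to 230.0 TPM against 121 to 276 TPM, with 196 to 332 TPM in vehicle mice. Apoe lay at 5027 to 6490.0 TPM against 5901 to 6971 TPM, with 6710.2 to 9312 TPM in vehicle mice. Mice on both drugs had medians of 850.1 TPM for Spp1, 369.6 TPM for Lyz2 and 91.9 TPM for Gpnmb. Without J02, Spp1 and Apoe were called lower (adjusted p = 0.032 and 0.0202) and 18 members of the list were called. The lowest number called with any 1 mouse left out was 13.

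Receptors and signaling proteins that phagocytes share were also lower with PLX3397. Of 15 Fc gamma receptor and ITAM signaling genes 14 were called lower (median -0.98), and of 18 genes of cathepsins and lysosome 12 (median -0.54). Fcgr3, a receptor for immunoglobulin G, measured 26.8, 43.4, 24.2, 39.5 and 34.7 TPM and 86.8, 79.6, 78.3, 86.6 and 76.6 TPM (-1.28 ± 0.13). Inpp5d, the lipid phosphatase SHIP1, measured 11.7, 18.8, 14.4, 13.7 and 13.1 TPM and 37.4, 30.9, 34, 31.9 and 33.7 TPM (-1.19 ± 0.10, adjusted p = 9.27e-06), and the exchange factor Vav1 7.04, 9.03, 7.08, 6.9 and 7.16 TPM and 19, 16.1, 17.2, 17.2 and 15.8 TPM (-1.10 ± 0.08, adjusted p = 4.59e-06). In each of these genes the groups lay apart, and in Vav1 the PLX3397 mouse J02 was the highest of its group. The kinase Btk differed by -1.09 ± 0.15 and Fcer1g, the common signaling chain, by -1.06 ± 0.11. Among lysosomal genes, Laptm5 differed by -1.14 ± 0.11 and progranulin (Grn) by -0.99 ± 0.10, with Ctsc at -0.85 ± 0.11 and Ctsz at -0.81 ± 0.11.

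The 250 bases upstream of Inpp5d and Vav1 are shown because both genes separated the drugs clearly and both hold a purine-rich ETS motif, GAGGAAGT, of the kind that PU.1, the lineage factor of macrophages, binds. Capitals mark the motif, the sequence is from the RefSeq tables for GRCm38.p6, and the last base lies next to the start site.
Inpp5d, chr1:87620062-87620311, plus strand: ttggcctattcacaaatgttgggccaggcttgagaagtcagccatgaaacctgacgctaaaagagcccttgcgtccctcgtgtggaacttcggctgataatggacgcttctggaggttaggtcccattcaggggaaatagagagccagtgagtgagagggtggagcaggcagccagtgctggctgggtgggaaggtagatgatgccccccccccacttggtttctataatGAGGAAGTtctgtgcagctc
Vav1, chr17:57278850-57279099, plus strand: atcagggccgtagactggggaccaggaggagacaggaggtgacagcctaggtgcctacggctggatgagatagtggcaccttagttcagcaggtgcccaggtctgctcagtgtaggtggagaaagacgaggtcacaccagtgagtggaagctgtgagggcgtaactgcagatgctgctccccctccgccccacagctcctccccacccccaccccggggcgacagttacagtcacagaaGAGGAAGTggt
The match began 20 bases upstream of the start site in Inpp5d and 11 bases upstream in Vav1. Searched on both strands in windows from 250 bases before to 50 bases after each start, GAGGAAGT was present in 3.20% of all 32851 windows. Counted by gene, with a match in any of its windows, it was present in 3.50% of tested genes that had a window. The share was 9.89% in the genes called lower that had a window and 3.25% in those called higher. Among phagocyte list members it was found in 5 of 49 called lower and in 2 of 10 not called. A match describes these letters in this window and shows no binding.

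Complement tags targets for phagocytes and kills by membrane pores. Of 19 tested complement genes 9 were called lower and 0 higher (median -0.35). The 3 chains of C1q, the recognition unit of the classical pathway, which microglia make in the brain, were all called. C1qa measured 442, 696, 461, 502 and 499 TPM with PLX3397 and 1186, 1058, 1074, 1159 and 1064 TPM with Anakinra (-1.11 ± 0.10, adjusted p = 1.47e-05). Again the groups lay apart with J02 highest among PLX3397 mice. C1qb differed by -0.99 ± 0.11 and C1qc by -1.13 ± 0.11. The receptor C5ar1 differed by -1.20 ± 0.14 (lost in the unequal-variance test) and Itgb2, the shared β chain of the complement receptors CR3 and CR4, by -1.03 ± 0.11. The remaining genes were named after their values were seen. C3, the central component, was not called (0.07 ± 0.17), nor was C4b (0.01 ± 0.07), and both C1 proteases C1ra and C1s1 differed by 0.01 ± 0.10 and 0.17 ± 0.12.

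Red cell genes gave some of the most negative differences. All 5 tested red cell genes were called lower, with a median of -1.70. Hbb-bs (chr7:103826523-103827928), a β-globin, measured 203, 342, 258, 255 and 378 TPM in PLX3397 mice and 1052, 1246, 1014, 939 and 934 TPM in Anakinra mice (-1.88 ± 0.14, adjusted p = 6.24e-06). The highest PLX3397 mouse lay far below the lowest Anakinra mouse. Sham mice, which were not injured, ranged from 756 to 1198 TPM and vehicle mice from 556 to 1617 TPM, so the PLX3397 values lay below uninjured tissue, as did those of mice on both drugs (245 to 324 TPM). Hba-a1 differed by -1.76 ± 0.14, Hbb-bt by -1.70 ± 0.16 and Hba-a2 by -1.67 ± 0.12. Each globin pair is nearly identical in sequence, so how reads were divided within a pair is uncertain, while the direction is that of all 4. Alas2, the erythroid enzyme that starts heme synthesis, measured 1.47, 2.0, 1.46, 1.56 and 2.7 TPM and 5.86, 7.58, 4.99, 4.74 and 4.78 TPM (-1.22 ± 0.14). Endothelial and blood-brain barrier genes, measured for comparison, had 0 of 18 members called (median 0.12), with Cldn5 at 85 to 105 TPM against 74.8 to 102 TPM. 4 of 15 genes of heme and iron handling were called lower, Cd163, the phagosomal iron transporter Slc11a1 (-0.74 ± 0.14, overlapping groups), ferritin light chain Ftl1 (-0.51 ± 0.11, overlapping groups) and Blvrb, while the heme oxygenase Hmox1 was not (-0.58 ± 0.22, adjusted p = 0.162).

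Type I interferon-stimulated genes were lower with PLX3397 than with Anakinra. Of 39 tested members 24 were called lower and 0 higher (median -0.57), and without J02 23 were called. Relative to the same vehicle mice, the median member was -0.23 with PLX3397 and 0.35 with Anakinra. Ifi27l2a (chr12:103433873-103443680), an interferon-inducible gene whose product lies in mitochondria and the nuclear envelope, measured 9.77, 21.7, 12.2, 21.5 and 20.7 TPM with PLX3397 and 67.3, 58.8, 71.5, 51 and 63.1 TPM with Anakinra (-1.86 ± 0.19, adjusted p = 4.16e-05). Vehicle mice (33.6 to 45.3 TPM) lay between the drug groups without touching either, and sham mice were at 0.992 to 3.07 TPM. Oas2 and Oas1a, synthases of the 2-5A messenger that activates RNase L, measured 1.02 to 2.03 against 3.57 to 5.92 TPM and 6.31 to 11.7 against 15.8 to 21.9 TPM (-1.10 ± 0.14 and -1.02 ± 0.15). Zbp1, a sensor of Z-form nucleic acid, differed by -1.01 ± 0.18 and Trim30a by -0.99 ± 0.17. Irf7, the factor that amplifies interferon production, chosen after its values were seen, lay at 13.2 to 23.1 TPM against 27.7 to 42.4 TPM, with 17.6 to 27.9 TPM in vehicle mice. Of 20 GTPases and other targets of interferon-gamma, 3 were called lower and 0 higher (median -0.33). Irf8, a lineage factor of microglia as well as an interferon target, differed by -1.10 ± 0.12. Irgm2 was called (-0.43 ± 0.12, adjusted p = 0.0452) and lost when any 1 of 7 mice was left out (PLX3397 J01 or J12 or any Anakinra mouse; adjusted p 0.0601 to 0.104), and Gbp3 was not called (-0.47 ± 0.13, adjusted p = 0.0567).

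The upstream sequences of Oas1a and Trim30a are shown because they hold the core of the interferon-stimulated response element, searched on both strands as GAAA, any 2 bases and GAAA. Capitals mark the match, in Trim30a on the opposite strand, and in Oas1a a pair of overlapping matches.
Oas1a, chr5:120907526-120907775, minus strand: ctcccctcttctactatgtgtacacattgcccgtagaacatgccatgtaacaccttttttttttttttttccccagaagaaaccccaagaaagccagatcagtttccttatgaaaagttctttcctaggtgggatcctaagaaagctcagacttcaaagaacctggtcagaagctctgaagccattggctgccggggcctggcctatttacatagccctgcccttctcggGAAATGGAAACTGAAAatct
Trim30a, chr7:104465194-104465443, minus strand: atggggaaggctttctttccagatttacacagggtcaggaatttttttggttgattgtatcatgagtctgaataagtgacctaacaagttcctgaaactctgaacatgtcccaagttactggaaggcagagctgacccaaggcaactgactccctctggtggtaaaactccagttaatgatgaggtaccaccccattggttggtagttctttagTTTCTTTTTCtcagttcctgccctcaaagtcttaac
The matches began 20 and 36 bases upstream of the start sites. This core was present in 3.44% of all windows, in 9 of the 15 called interferon-stimulated genes that had a window (60%) and in 8 of the 14 that were not called (57.1%). Called and uncalled members thus held the motif at like shares. By gene, the core was present in 3.74% of tested genes with a window, in 7.76% of those called lower and in 2.44% of those called higher.

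Antigen presentation genes of both classes were lower with PLX3397. MHC class II genes, which mark activated phagocytes and dendritic cells, had 9 of 13 members called lower (median -0.74). Cd74, the invariant chain, measured 15.2, 17.1, 14.4, 12.5 and 15.1 TPM and 51.2, 35.4, 46.2, 36.2 and 31.5 TPM (-1.36 ± 0.12, adjusted p = 1.26e-05), a call lost in the unequal-variance test. PLX3397 mice were tightly grouped, Anakinra mice were spread more widely, and the groups did not overlap. The chains H2-Ab1, H2-Aa and H2-Eb1 differed by -1.36 ± 0.14, -1.31 ± 0.12 and -1.14 ± 0.13, with the H2-Ab1 call lost in the same test, and the costimulator Cd86 by -0.86 ± 0.11. MHC class I genes, which nearly all cells express, had 14 of 19 members called lower (median -0.56). The immunoproteasome subunit Psmb8 measured 18.2, 29.8, 22.4, 27.6 and 27 TPM and 52, 46.2, 52.6, 42.1 and 46.9 TPM (-0.93 ± 0.11). B2m, the light chain of class I molecules, lay at 499.5 to 712 TPM against 908 to 1019.8 TPM (-0.69 ± 0.09). H2-Q6 and H2-Q7 differed by -0.82 ± 0.18 and -0.73 ± 0.14, but near-identical copies make reads of single H2-Q genes uncertain and both calls were lost in that test too. Relative to vehicle, the median class II gene was -0.85 with PLX3397 and -0.10 with Anakinra, and the median class I gene -0.32 and 0.19.

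**Figure D3:**
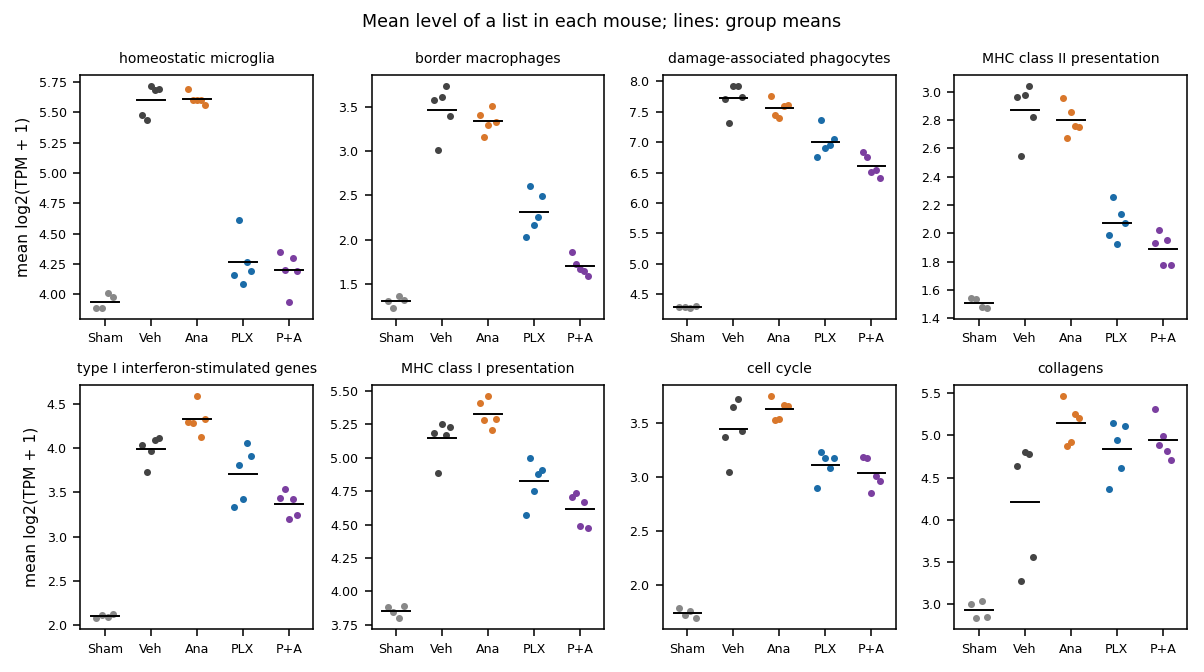
Mean log2(TPM + 1) over the members of 8 gene lists (vertical axes, not starting at 0) in every mouse, by group; horizontal lines are group means, n = 4 for sham and 5 for the others. PLX3397 mice lie below all Anakinra mice in 7 of the lists and overlap them in collagens, where 2 of the 5 vehicle mice lie apart from the other 3.

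The IL-1 system itself, the target of Anakinra, was followed through its ligand and receptor genes. Of 11 tested, 1 was called lower (9.09%, against 5.06% of all tested genes) and 0 higher (median 0.10). Il1a, the alarmin ligand, measured 0.843, 0.57, 0.946, 1.25 and 1.05 TPM with PLX3397 and 1.47, 1.69, 1.81, 1.55 and 1.5 TPM with Anakinra (-0.44 ± 0.11, adjusted p = 0.0252). The groups did not overlap, but the call was lost without PLX3397 J01 or Anakinra J06, J14 or J21 (adjusted p 0.0502 to 0.0657) and in the unequal-variance test. Il1b was low in both groups, 0.752, 0.541, 0.57, 1.4 and 1.27 TPM and 0.541, 0.829, 1.1, 0.599 and 0.511 TPM, and not called (0.14 ± 0.15). The signaling receptor Il1r1 lay at 7.88 to 12.7 TPM against 8.08 to 10.5 TPM (0.14 ± 0.11, adjusted p = 0.528), and its partner chain Il1rap at 0.17 ± 0.06 on the log2 scale. Il1rn, the endogenous antagonist that Anakinra copies, lay at 1.27 to 2.39 TPM against 1.99 to 3.51 TPM (-0.25 ± 0.14). The decoy receptor Il1r2 differed by 0.10 ± 0.12, the inhibitory receptor Sigirr by 0.21 ± 0.12 and the IL-36 receptor Il1rl2 by -0.36 ± 0.14. Of the related cytokines, Il33, an alarmin that glia hold in their nuclei, lay at 119 to 158 TPM against 105 to 135 TPM, Il18 differed by -0.10 ± 0.07 and its binding protein Il18bp by 0.09 ± 0.09.

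Inflammasome genes lie upstream of IL-1β release, and adaptor genes downstream of the receptor. Of 12 inflammasome and adaptor genes 5 were called lower and 0 higher (median -0.35). Nlrp3, the inflammasome sensor, measured 1.24, 1.3, 1.05, 0.909 and 1.34 TPM with PLX3397 and 3.74, 2.51, 2.96, 2.93 and 3.29 TPM with Anakinra (-0.91 ± 0.10, adjusted p = 7.68e-05). Its adaptor Pycard (ASC) measured 9.13, 14.7, 9.71, 9.71 and 11.2 TPM and 27, 22.2, 22.3, 25.2 and 24 TPM (-1.10 ± 0.11). Casp1, the protease that matures IL-1β, differed by -0.60 ± 0.10 and the kinase Irak4 by -0.46 ± 0.07. The pore protein Gsdmd was called (-0.70 ± 0.18, adjusted p = 0.0296) and lost without any 1 of 6 mice (PLX3397 J12 or J19, Anakinra J05, J06, J14 or J21; adjusted p 0.0525 to 0.0789). NF-kappaB response genes, which lie downstream of IL1R1 and of many other receptors, had 3 of 19 members called lower and 0 higher (median -0.23). Icam1, an adhesion molecule for leukocytes, measured 8.93, 11.8, 11.7, 11.5 and 14 TPM and 17.6, 16.7, 16.8, 15.6 and 15 TPM (-0.47 ± 0.09), with the call lost in the unequal-variance test. Tnf differed by -0.56 ± 0.16 and was not called (adjusted p = 0.0574), and Ptgs2 (cyclooxygenase-2), at 6.4 to 10.7 TPM against 4.41 to 7.0 TPM, was not called either (0.35 ± 0.13).

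Of 20 tested chemokines 10 were called lower and 1 higher (median -0.47). The latter, named after its value was seen, was Cxcl12 (0.24 ± 0.06), a chemokine of vascular and stromal cells. Ccl8 differed by -1.41 ± 0.23, Ccl9 by -1.22 ± 0.13 and Ccl6 by -1.01 ± 0.15, and all 3 attract or come from myeloid cells. Ccl2, the main attractant of monocytes, measured 7.74, 10.8, 8.11, 13.2 and 10.8 TPM with PLX3397 and 18.9, 14.7, 23.1, 15.1 and 13.9 TPM with Anakinra (-0.70 ± 0.15, adjusted p = 0.0115). The Anakinra mice were widely spread, and their lowest lay just above the highest PLX3397 mouse. Cxcl13, which attracts B cells, was near 0 with PLX3397 (0.571, 0.19, 0, 0.425 and 0.535 TPM) and at 2.35, 1.05, 1.25, 1.05 and 1.06 TPM with Anakinra (-0.80 ± 0.17). The calls of Ccl8, Ccl2 and Cxcl13 were lost in the unequal-variance test. Of 24 listed markers of blood monocytes and neutrophils 13 were tested, and 3 were called lower and 0 higher. Their median was -0.06, with 7 members negative and 6 positive. The monocyte marker Ly6c2 ranged from -0.55 (without PLX3397 J20) to 0.028 (without Anakinra J14). Ccr2, the receptor for Ccl2, measured 0.468, 0.777, 0.443, 1.12 and 1.19 TPM and 2.0, 1.6, 2.28, 2.64 and 2.29 TPM (-0.83 ± 0.14), and Csf3r, the receptor for G-CSF, differed by -0.93 ± 0.13. Mmp9, whose call was lost in the same test, was high in some Anakinra mice, at 8.24, 2.69, 4.1, 4.56 and 3.29 TPM against 1.76, 1.91, 1.7, 1.23 and 1.83 TPM (-0.98 ± 0.20). The neutrophil genes S100a8 and S100a9 overlapped widely, with S100a9 at 4.05, 5.47, 6.48, 10.8 and 13.8 TPM and 1.49, 5.58, 18.3, 5.35 and 3.05 TPM, where Anakinra J14 stood far above its group. Arg1, chosen after its values were seen, lay at 9.61 to 25.4 TPM against 10.1 to 25.6 TPM, both mostly below the vehicle range of 20.4 to 78.8 TPM. Ly6g was at or near 0 in all 10 mice (at most 0.13 TPM). Lymphocyte genes had 1 of 5 tested members called, Cd79b (-0.55 ± 0.14), lost without any 1 of 7 mice (PLX3397 J01, J12 or J19, Anakinra J05, J06, J21 or J22; adjusted p 0.0504 to 0.0737).

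Genes of DNA replication and mitosis were lower with PLX3397, in 22 of 30 members (median -0.54), and 24 without J02. At the lowest, 19 were called with 1 mouse left out. Top2a, the topoisomerase of dividing cells, measured 8.9, 14.9, 12.9, 11.7 and 12.4 TPM and 23.2, 18.8, 20, 22.2 and 23.6 TPM (-0.79 ± 0.11, adjusted p = 0.000417). Aurkb, a mitotic kinase, measured 2.74, 3.85, 3.64, 3.12 and 2.97 TPM and 6.34, 6.83, 6.36, 6.33 and 8.08 TPM (-0.87 ± 0.09), and Mki67 (Ki-67) 5.36 to 8.32 TPM against 10.4 to 13.6 TPM (-0.72 ± 0.11). No PLX3397 mouse reached the lowest Anakinra mouse in these genes. Cdc20 differed by -0.70 ± 0.11 and Pbk by -0.70 ± 0.08. Sham mice had a median of 1.46 TPM for Top2a, and both drug groups lay above it. Relative to the same vehicle mice, the median cell cycle gene was -0.34 with PLX3397 and 0.21 with Anakinra. Cdkn1a, the p21 inhibitor of the cell cycle, was also lower with PLX3397 (32.5, 32.6, 33.2, 26.4 and 31.4 TPM against 48.6, 38.6, 42.7, 48.2 and 45.4 TPM, -0.5 ± 0.07). It was the 1 gene called of 21 in the glucocorticoid response and clock list (4.76%, against 5.06% of all tested genes).

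Genes of the fibrotic scar mostly overlapped between the drugs. Of 20 collagens 1 was called lower (5%) and of 34 scar matrix genes 1 (2.94%), against 5.06% of all tested genes. The medians were -0.30 and -0.22, and the difference was negative in 20 of 20 collagens and 28 of 34 scar matrix genes. Col1a1, the main chain of type I collagen, measured 132, 348, 298, 171 and 302 TPM with PLX3397 and 525, 232, 246, 352 and 314 TPM with Anakinra (-0.44 ± 0.27, adjusted p = 0.397). Both groups spread more than 2-fold and overlapped. Vehicle mice ranged from 15.1 to 206 TPM and sham mice from 4.05 to 6.11 TPM. Relative to vehicle the median collagen was 0.52 with PLX3397 and 0.88 with Anakinra, but these values share the vehicle mice, which were themselves split. Col6a3 differed by -0.5 ± 0.16 (adjusted p = 0.107) and Col10a1 by -0.59 ± 0.24 (adjusted p = 0.203). Dcn (decorin) went the other way, at 0.0797 without PLX3397 J20 to 0.295 without PLX3397 J01, and stayed positive whichever mouse was dropped. Lum (lumican) changed sign, from -0.22 without PLX3397 J20 to 0.24 without PLX3397 J01. The called collagen, Col5a3 (-0.41 ± 0.10), was lost without any 1 of 6 mice (PLX3397 J01, J19 or J20, Anakinra J05, J14 or J21; adjusted p 0.0597 to 0.0826). Mmp12, the macrophage elastase that is also counted in the matrix list, measured 3.59, 5.28, 4.03, 3.83 and 3.53 TPM and 10.7, 6.94, 5.73, 7.24 and 11.7 TPM (-0.87 ± 0.16, lost in the unequal-variance test).

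Only single astrocyte genes were called. Of 20 genes raised in reactive astrocytes 2 were called lower (10%) and 1 higher (median -0.09). Over all tested genes, 5.06% were called lower and 1.00% higher. Gfap, the filament protein of the reaction, did not differ beyond the spread (1576, 1882, 1855, 1836 and 1903 TPM and 1925, 1857, 1437, 1812 and 1684 TPM, 0.06 ± 0.08). Lcn2 (chr2:32384637-32387739), the iron-siderophore carrier lipocalin 2, had the largest difference of the genes called higher, 40.4, 57.3, 49.4, 66.4 and 60.8 TPM with PLX3397 and 15.3, 23.7, 52.9, 17.9 and 16.6 TPM with Anakinra (1.23 ± 0.27, adjusted p = 0.0127). 4 Anakinra mice lay below all PLX3397 mice, and Anakinra J14 lay inside the PLX3397 range. The call was lost when all 24 libraries shared 1 fit (adjusted p = 0.0728) and in the unequal-variance test. Vehicle mice ranged from 40 to 90.8 TPM, around the PLX3397 values. Mice on both drugs ranged from 12.2 to 54.8 TPM, with a median of 16.7 TPM. The highest of them, J09, lay inside the PLX3397 range. Cd14, the co-receptor for lipopolysaccharide, which phagocytes also express, differed by -0.65 ± 0.11, and Tgm1 by -0.30 ± 0.07, a call lost without Anakinra J05, J06, J14 or J21 (adjusted p 0.0507 to 0.072) and with all 24 libraries in 1 fit (0.258). Among 14 genes of homeostatic astrocytes 1 was called lower (7.14%), the folate enzyme Aldh1l1 (80.9, 85.6, 85.8, 90.1 and 86.9 TPM and 108, 101, 107, 103 and 102 TPM, -0.28 ± 0.04). S100b was called higher (0.21 ± 0.05), lost without any 1 of 5 mice (PLX3397 J19 or J20, Anakinra J05, J14 or J22; adjusted p 0.052 to 0.0605). Aqp4, the water channel of astrocyte endfeet, was not called (0.22 ± 0.09).

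**Figure D4:**
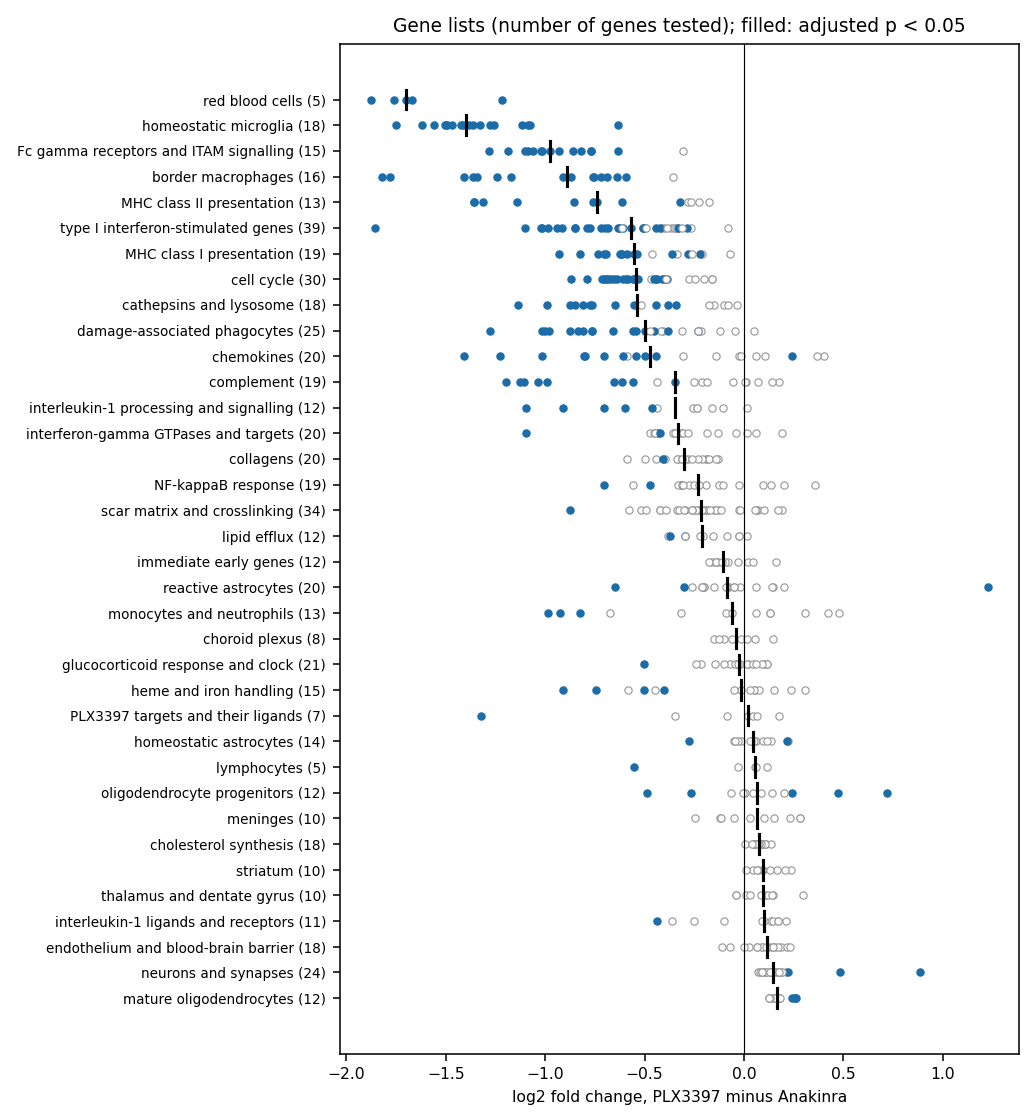
Log2 fold change, PLX3397 minus Anakinra (horizontal axis), of every tested member of the 36 gene lists, 1 row per list ordered by its median, drawn as a black tick. Filled points are called at adjusted p below 0.05 and open points are not. The members of red blood cells and homeostatic microglia are all filled and negative, and the filled points of mature oligodendrocytes and neurons are all positive.

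Oligodendrocyte genes were among the few groups with members higher in PLX3397 mice. Of 12 myelin genes 5 were called higher and 0 lower (median 0.17), with small differences. Mbp, myelin basic protein, measured 1926, 2085, 1985, 1967 and 1834 TPM and 1767, 1704, 1547, 1572 and 1589 TPM (0.26 ± 0.05, adjusted p = 0.00667). PLX3397 mice lay above all Anakinra mice, by a small margin relative to the level. Cnp differed by 0.24 ± 0.04, Ugt8a by 0.25 ± 0.06 (lost without Anakinra J14, adjusted p = 0.0504) and Mog by 0.18 ± 0.04 (lost without any 1 of 6 mice, PLX3397 J02, J19 or J20 or Anakinra J06, J21 or J22; adjusted p 0.0584 to 0.0713). Genes of the progenitor lineage differed in both directions. Enpp6 (chr8:46939197-47096762), the choline phosphodiesterase of newly forming oligodendrocytes, measured 19.4, 19, 20.1, 21 and 21.1 TPM with PLX3397 and 14.6, 11.2, 9.62, 10.6 and 13.8 TPM with Anakinra (0.72 ± 0.10, adjusted p = 0.000346). The vehicle range was 13.5 to 19.9 TPM and the sham range 4.9 to 6.92 TPM. Bcas1 differed by 0.24 ± 0.05 and Bmp4 by 0.47 ± 0.13, the latter lost without any 1 of 8 mice (all but PLX3397 J01 and Anakinra J05; adjusted p 0.053 to 0.0964). The progenitor markers Cspg4 (NG2) and Pdgfra, which pericytes and perivascular fibroblasts also express, were called lower (-0.49 ± 0.10 and -0.27 ± 0.06). Both were lost in the unequal-variance test, and Pdgfra also without PLX3397 J12 or Anakinra J05, J21 or J22 (adjusted p 0.0503 to 0.0603).

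Neuronal genes had 3 of 24 members called higher and 0 lower (median 0.15). Grin2b, an NMDA receptor subunit, measured 42.7, 36.6, 43.3, 37 and 32.2 TPM with PLX3397 and 18.3, 20.6, 19, 14.3 and 32.7 TPM with Anakinra (0.88 ± 0.16, adjusted p = 0.00405). Anakinra J22 lay within the PLX3397 range and the other 4 below it. Its partner subunit Grin2a measured 13.3, 11.9, 12.1, 10.9 and 11 TPM and 8.07, 7.41, 9.29, 6.29 and 10.3 TPM (0.48 ± 0.11). The calls of both subunits were lost in the unequal-variance test. Nefl, the neurofilament light chain, differed by 0.22 ± 0.06 and was lost without any 1 of 7 mice (PLX3397 J01, J02, J12 or J19, Anakinra J05, J06 or J21; adjusted p 0.0656 to 0.111). Beyond the lists, the genes with the largest differences among those higher without overlap were mostly of moderate or low level. Kctd16, an auxiliary subunit of GABA-B receptors, measured 17.3, 13.7, 14.1, 17.5 and 17.6 TPM and 9.7, 9.12, 9.36, 5.9 and 11.2 TPM (0.78 ± 0.13), with vehicle mice spread over both groups (7.07 to 20 TPM). The zinc finger gene Zbtb37 differed by 0.66 ± 0.11, the potassium channel Kcnh7 by 0.58 ± 0.11 and Lrp1b, of the LDL receptor family, by 0.46 ± 0.07. Pura, a nucleic acid-binding protein, differed by 0.5 ± 0.08 and Lrrc7, a scaffold of the postsynaptic density, by 0.44 ± 0.08, and both calls were lost in the unequal-variance test. The lens filament gene Bfsp2 measured 25.1, 25.2, 24.4, 26.5 and 25.7 TPM and 18.4, 16, 13.3, 19.3 and 17.9 TPM (0.57 ± 0.08), the ceramidase Acer2 differed by 0.52 ± 0.07 and Rassf10 by 0.52 ± 0.08. Rnf122 differed by 0.46 ± 0.08, the rhomboid protease Rhbdl2 by 0.5 ± 0.10, the platelet glycoprotein Gp5 by 0.51 ± 0.11 and the defensin Defb1 by 0.55 ± 0.13, the last lost in the same test.

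The 4 genes higher under the study's limits were Lcn2 and 3 uncharacterized genes, named after their values were seen. Gm42391 measured 45.6, 49.8, 40.8, 53.7 and 55.6 TPM and 18.4, 19.8, 20.1, 23.5 and 27.8 TPM (1.14 ± 0.11, adjusted p = 2.43e-05), 2900055J20Rik 15.3 to 20.3 TPM against 5.44 to 11.6 TPM (1.05 ± 0.15) and 9630013A20Rik 7.5 to 13.6 TPM against 2.68 to 6.91 TPM (1.07 ± 0.19). None of the 3 overlapped between the groups. Predicted or uncharacterized genes made up 14.5% of tested genes, 5.72% of those called lower and 20.2% of those called higher. Genes called higher also spanned more of the genome, with a median RefSeq span of 38.4 kb against 18.6 kb in genes called lower and 21.9 kb over all tested genes. Of the genes called lower, 188 belonged to 1 of the 36 lists and 686 to none. Evi2b, a leukocyte membrane protein, was the remaining gene among the 15 largest negative differences (1.39, 0.50, 2.03, 3.57 and 1.16 TPM and 5.87, 7.29, 6.49, 4.11 and 6.55 TPM, -1.45 ± 0.24).

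Several groups showed no called gene in either direction: striatum (10 genes), thalamus and dentate gyrus (10), choroid plexus (8), meninges (10), immediate early genes (12) and cholesterol synthesis (18), with medians between -0.10 and 0.10. Without J02, 3 striatal genes were called higher, Ppp1r1b (adjusted p = 0.0455), Penk (0.0272) and Adora2a (0.0477), while with it Ppp1r1b differed by 0.09 ± 0.10. Of 12 lipid efflux genes the transporter Abca1 (-0.30 ± 0.07) and the lysosomal lipase Lipa (-0.37 ± 0.09) were called lower, Lipa lost without any 1 of 5 mice (PLX3397 J01 or J12, Anakinra J05, J21 or J22; adjusted p 0.0526 to 0.0676).

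The groups outside the comparison placed the called genes as follows, by group means and with no test. Of the 874 genes lower in PLX3397 than in Anakinra mice, the vehicle mean lay above both drugs in 431, between them in 437 and below both in 6, and it was nearer to Anakinra in 801. The mean of mice on both drugs was nearer to PLX3397 in 860. It lay below both single-drug means in 679, between them in 195 and above both in 0. The sham mean lay below both drugs in 784. Of the 173 genes higher in PLX3397 mice, the vehicle mean lay between the drugs in 149 and was nearer to Anakinra in 105. The mean on both drugs was nearer to PLX3397 in 155. It lay above both single-drug means in 57, between them in 113 and below both in 3.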

How the data were processed

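Messenger RNA from brain cryosections was sequenced, 1 library per mouse, by the study in 24 male mice, of which 10 are compared here. According to the labels and methods, the authors mapped reads to the mouse genome (mm10, GRCm38) with CLC Genomics Workbench and deposited TPM values per gene. TPM sums to the same total in every library, so a large change in abundant transcripts shifts the values of all others, and it holds no read counts, so depth and counting error are unknown. The deposited tables were a full table, the same table rounded, and a filtered one whose p-value and fold columns of the authors' own comparisons were not used. Libraries were grouped by their treatment labels. No pair of the 10 libraries was identical: the SD of the log2 difference across genes was 0.208 to 0.402 over the 45 pairs.

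Values were analysed as log2(TPM + 1), leaving out genes that averaged under 0.5 TPM across the series. The 5 PLX3397 and 5 Anakinra libraries were fitted in limma 3.58.1 (R 4.3.3; lmFit, eBayes with a trend), with Benjamini-Hochberg adjustment over all 17267 genes and a threshold of 0.05; p-values are two-sided. Fold changes are on the log2(TPM + 1) scale, which understates changes of low genes. The second rule for calls used the study's limits (unadjusted p below 0.05, ratio above 2, difference above 4 TPM). Its p came from limma in place of the study's own tests. The fit was tested on simulated data.

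The comparison and its 36 gene lists were chosen with earlier results of these data known, so a list's count is a description and no list was tested as a set. Named are all members of the PLX3397 target and IL-1 lists, the 15 largest differences in each direction among called genes without overlap (predicted genes left out and counted), up to 5 members of every other list by size of difference with defining markers, and others marked as chosen after their values were seen. Il36g, Plin2, Mx1, Mx2, Ifi207 and Cxcl11 were not analysed here. Some list members are counted but not reported singly here. Gene positions and upstream sequences are from RefSeq tables for GRCm38.p6, and motifs were searched on both strands.

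Alternatives were all 24 libraries in 1 fit, a pseudocount of 0.1, other limits on low values (above 0 in at least 1 library, or a mean of at least 5 TPM), median-ratio scaling, the rounded and the filtered table, limma without trend or with library weights, a test of each gene alone with unequal variances on TPM (approximate with 5 mice per group, so only its counts and lost calls are given), a difference above 1 TPM, and leaving out each mouse. The table planned as the alternative was the full-precision one, which served as the base, so the rounded one was run in its place.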

Additional observations from a re-analysis of the deposited data

Results flagged for a closer look

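In each drug group of 5 mice, a value was singled out where the gap from the highest or lowest mouse to its neighbor took more than 0.71 of the whole range (Dixon's 95% limit). Over the 159 genes whose values are given this was met in 23 of 317 groups with any spread, where chance alone gives about 1 in 20, and genes measured in the same mice are not independent. PLX3397 J02 accounted for 10 of the 23. It was the highest of its group in Tmem119 (32.6 TPM), Trem2 (185 TPM), C1qa (696 TPM), Clec7a (20.7 TPM), Fcer1g (189 TPM), Irf8 (18.7 TPM), Vav1 (9.03 TPM), Mmp12 (5.28 TPM) and Ptgs2 (10.7 TPM), and the lowest in the striatal gene Ppp1r1b (513 TPM). In all of these but Ptgs2 the mouse lay below every Anakinra mouse.

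Anakinra J14 was the highest of its group in Lcn2 (52.9 TPM), S100a9 (18.3 TPM), Oas2 (5.92 TPM) and Irgm2 (18.2 TPM). Anakinra J05 was the highest in Cxcl13 (2.35 TPM), Grn (550.0 TPM) and Laptm5 (225 TPM), Anakinra J22 in Aurkb (8.08 TPM) and Anakinra J21 in Ly6g (0.13 TPM, with the other 4 at 0). PLX3397 J01 was the lowest in Gfap (1576 TPM) and the highest in Crybb1 (3.20 TPM). PLX3397 J19 was the lowest in Cdkn1a (26.4 TPM) and the highest in Il18 (32.5 TPM).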

How the results depend on the processing

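The count called lower stayed within 1.5 times under all settings tried but the unequal-variance test on TPM, which called 500 genes lower and 76 higher. A difference above 1 TPM in place of 4 TPM gave 192 lower and 9 higher genes under the study's limits. Leaving out 1 mouse gave 680 (without Anakinra J05) to 950 (without PLX3397 J02) genes called lower, 102 (without Anakinra J05) to 210.0 (without Anakinra J22) called higher, and, under the study's limits, 100.0 to 160.0 lower and 3 to 7 higher. The median of border macrophage genes was -1.30 with a pseudocount of 0.1, and that of MHC class II genes -1.01 with a pseudocount of 0.1 and -1.23 at a mean of at least 5 TPM. Leaving out 1 mouse moved the lymphocyte median between -0.032 and 0.084 and the glucocorticoid and clock median between -0.048 and 0.0145, in both cases with a change of sign without PLX3397 J12. List medians near 0 also changed sign for PLX3397 targets (-0.045 without Anakinra J06), monocytes and neutrophils (0.028 without Anakinra J14), heme and iron handling (0.016) and choroid plexus (0.052), the last 2 without Anakinra J21. Timp1, not called (-0.26), ranged from -0.43 (without PLX3397 J20) to 0.0072 (without PLX3397 J01). Of 123 called genes followed singly, 82 kept the call in every setting that tested them. The call was lost at least once in 41, and in 14 when a mouse was left out. Genes that averaged under 5 TPM were not tested under that limit, which held 186 of the 231 genes followed, called or not. The causes were not tested. Median-ratio scaling shifted the median of all genes by -0.020. Depth could not be judged from TPM. No paired analysis was possible because the PLX3397 and Anakinra mice share no animal number.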
